A study of Drosophila melanogaster with 90 samples.

Results

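The genes described here are 139 of the 14514 gene rows of a whole-female RNA-seq table that differed by a factor of 10 or more between inbred lines of Drosophila melanogaster. They carry a CG symbol, the numbered name of an annotated gene. They were chosen from mated females: reads were expressed as counts divided by the library's total and scaled to 1000000 (CPM), the median over the mated libraries of each female line was taken, and a gene was kept when its highest line median was at least 5 CPM and its lowest was at most 0.1 of the highest. Of 7773 CG genes, 4099 reached 5 CPM in a line, and 3.39% of these were kept. The same thresholds kept 100 of 4653 genes with other symbols (2.15%). Near silence held for only part of the 139: the lowest line median was below 1 CPM in 67 genes, and it was 5 CPM or more in 27. They are therefore called line-variable CG genes below. Since mated levels chose the genes, their differences between mated females of the lines are given as a description, with no test.

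The females were virgin or singly mated flies of 5 inbred lines derived from Beijing, Ithaca, Netherlands, Tasmania and Zimbabwe collections, kept at 25 °C and aged 3 to 5 days. The Zimbabwe line was collected in Africa but is described by its submitters as a recent migrant. Females of each line were mated to males of each line (25 crosses) and frozen 5 to 6 h after mating began, beside virgins of the same age. Each line is a single inbred strain with no allele or agent added, so every line difference compares 5 strains. A library pooled 5 to 10 females, and 3 libraries per group came from separate bottles. There were 15 virgin and 74 mated libraries. Of the mated ones, 9 were left out in choosing the genes, which left 13 for Beijing, 9 for Ithaca, 13 for Netherlands, 15 for Tasmania and 15 for Zimbabwe. A cross is written with the female line first.

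Gene expression commonly differs between strains of a species, through changes in a gene's own regulatory DNA, loss or gain of copies, or changes in factors acting on many genes. Families that digest food, handle toxins or defend against microbes are often duplicated in clusters in the fly, and members of such clusters can differ between strains. Mating changes transcripts of digestion, immunity and reproduction in the female fly. In RNA from whole bodies, fewer cells of a type and less RNA per cell cannot be told apart.

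Total counts ranged from 4407704 to 38799730 over all 89 libraries. The 6 female markers (yolk, eggshell and vitelline genes) summed to 18173 CPM or more in every library. The 24 testis and sperm markers summed to 3.50 to 9.55 CPM in the 65 kept mated libraries, 4.90 to 11.0 in virgins and 3.86 to 1535 in the 9 left out. The 13 measured accessory gland markers summed to at most 2.71 CPM in kept mated libraries and 1.23 in virgins, against 0 to 572 in those left out. The 13 genes that were low in 4 lines, described below, were also raised in some libraries of other lines. In Netherlands x Ithaca replicate 2, both Ithaca genes stood at a median of 62.5% of the way from the Netherlands level to the Ithaca level. All 3 Zimbabwe genes were raised in Ithaca x Zimbabwe replicate 3 (15.4%), Beijing x Netherlands replicate 2 (12.5%) and the virgin library Tasmania virgin replicate 3 (15.2%). The last was kept in the tests, and the counts of calls it enters are given without it as well. In Ithaca x Zimbabwe replicate 1 the median of the 2 Tasmania genes was 23.7%, with 1.95% for one gene and 45.4% for the other. In Netherlands x Beijing replicate 2 the medians were 34.8% for the Beijing genes, 18.2% for the Ithaca genes and 16.1% for the Tasmania genes, and the 3 Beijing genes ranged from 7.89% to 1037%. Their testis marker sums were 1513 and 1535 CPM, and the part of testis transcripts in these values was not tested. In the kept mated libraries the median of such a group of genes reached at most 8.22%.

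Across the 139 genes, 75 were low (at most 0.1 of the highest line) in a single line, 34 in 2 lines, 17 in 3 and 13 in 4. Low genes were spread over the lines: 53 genes were low in Beijing, 53 in Ithaca, 48 in Netherlands, 38 in Tasmania and 54 in Zimbabwe. The highest line was more uneven, with 47 genes highest in Beijing, 30 in Ithaca, 25 in Tasmania, 21 in Zimbabwe and 16 in Netherlands. Lines that were low together formed 27 combinations. The most frequent were Beijing alone (21 genes), Ithaca alone (18), Zimbabwe alone (18), Tasmania alone (11) and Netherlands together with Zimbabwe (10). The lowest line was at 0.01 of the highest or below in 23 genes, and the median of the highest line medians was 28.1 CPM.

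**Figure D1:**
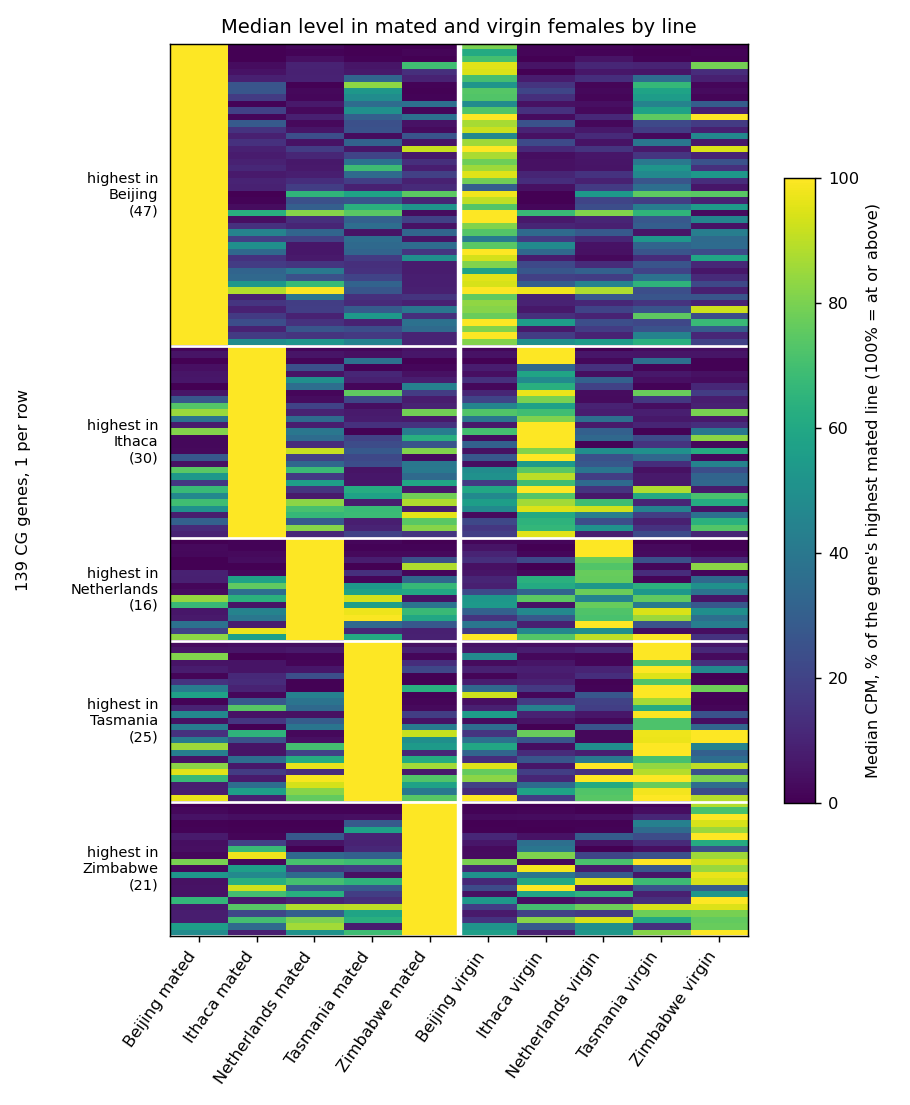
Median level of each of the 139 genes (rows) in mated and virgin females of the 5 lines (columns), as a percentage of the gene's highest mated line median, with values above 100% shown as 100%. Rows are grouped by the line with the highest mated median, which is Beijing for 47 genes, Ithaca for 30, Netherlands for 16, Tasmania for 25 and Zimbabwe for 21. The bright blocks of the mated columns recur in the virgin columns of the same line, which were not used to choose the genes.

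A group of 3 genes was above 0.1 of their top level in Beijing females only. CG14499 had 149 to 593 CPM (median 406) in mated Beijing females, and its medians in mated females of the other lines were 1.42 in Ithaca, 16.5 in Netherlands, 4.07 in Tasmania and 0.837 in Zimbabwe. Virgin Beijing libraries had 286, 168 and 368 CPM, and the highest virgin library of another line had 57.8 (Netherlands). The Beijing libraries lay above the virgin and kept mated libraries of all other lines. CG13000 had 6.43 to 12.4 CPM in mated Beijing females, and its median was 0 in Tasmania and Zimbabwe, where the highest kept library had 0.815. In the kept library Netherlands x Zimbabwe replicate 2, CG13000 stood 41.5% of the way from the Netherlands level to the Beijing level. CG17377 had 1.24 to 8.96 CPM in mated Beijing females and no more than 0.258 in any kept mated library of another line. CG17377 also reached 66.1 CPM in Ithaca x Zimbabwe replicate 1 and 66.9 in Netherlands x Beijing replicate 2, both left out, where the testis markers summed to 1513 and 1535 CPM; the part of those transcripts was not tested.

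Ithaca females stood apart in CG42749 and CG15399, whose exons overlap a gene on the opposite strand in the reference. The library kit does not mark strand, so reads of such a pair cannot be told apart. Mated Ithaca females had 3.41 to 10.7 CPM of CG15399 (median 5.42), against at most 0.688 in every kept mated library of the other lines. CG42749 had a mated Ithaca median of 8.47 CPM and a highest value of 18.8, but 1 kept Ithaca library held only 0.108 CPM. That library lay among the other lines, whose kept libraries reached 0.695. The 3 virgin Ithaca libraries had 3.94, 10.2 and 15 CPM of CG42749.

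Netherlands females stood apart in CG34411, CG10154 and CG44152. CG34411 is Lgr4, a leucine-rich repeat receptor of the relaxin receptor family. It had 50.1 to 100 CPM in mated Netherlands females (median 68.4) and medians of 1.38 to 1.73 in the other lines, with virgin Netherlands values of 89.7, 60.0 and 70.7. CG10154 had 11.5 to 29.4 CPM in mated Netherlands females and its Beijing median was 0. CG44152 is ppk18, of the pickpocket family of sodium channel subunits. It had 5.23 to 11.8 CPM in mated Netherlands females, and other lines had at most 0.714. None of the 3 overlapped between Netherlands and other kept mated libraries. The exons of Lgr4 and ppk18 also overlap an opposite-strand gene.

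Tasmania females stood apart in CG3777 (37.1 to 99.6 CPM, median 66.5), whose exons overlap the neural transcription factor gene ewg on the opposite strand, and in CG34460. CG3777 was low rather than silent elsewhere, with medians of 3.45 to 5.95 CPM. CG34460 varied widely within mated Tasmania females, from 0.445 to 25.5 CPM with a median of 6.42. Its lowest Tasmania libraries overlapped the other lines, which reached 0.675 CPM. The virgin Tasmania libraries had 16.0, 12.1 and 11.0 CPM of CG34460 and did not overlap other virgins.

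Zimbabwe females stood apart in CG32718, CG31626 and CG15130. CG32718 had 45.6 to 132 CPM in mated Zimbabwe females (median 87.0), while the other lines had medians of 0.193 to 0.278 and a highest kept mated library of 1.35. Virgin Zimbabwe libraries had 77.2, 72.7 and 77.0 CPM. Virgin Tasmania libraries had 1.46, 0.304 and 13.4 CPM, and the last is the library in which all 3 Zimbabwe genes were raised. CG31626, whose exons overlap an antisense RNA gene on the opposite strand, had 5.55 to 11.3 CPM, and CG15130 had 2.72 to 8.87 CPM in mated Zimbabwe females. In the other lines the highest kept values were 0.787 and 0.366 CPM.

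**Figure D2:**
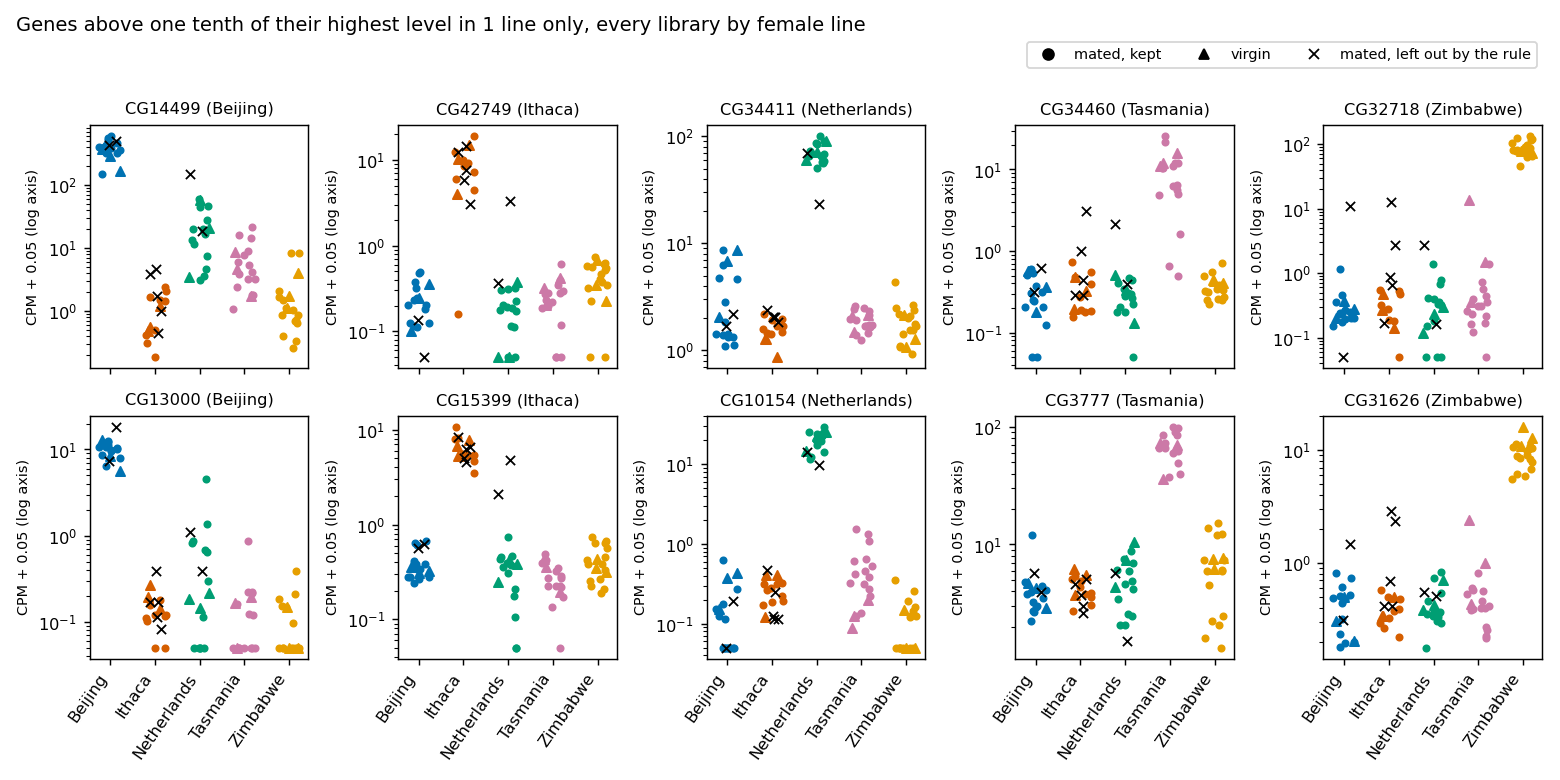
CPM of 10 genes that were low in 4 of the 5 lines, in every library by female line (log axis, with 0.05 added so that 0 can be drawn). Circles are kept mated libraries, triangles are virgin libraries and crosses are the 9 mated libraries left out. The line in brackets lies above the others in nearly every library. Crosses between the clusters include CG32718 at 12.7 CPM in an Ithaca library and 11.0 CPM in a Beijing library, and a triangle at 13.4 CPM is a Tasmania virgin library.

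Some of the 75 genes low in a single line showed the opposite pattern. Others in this set, such as CG6296 and CG9468 described below, were also well under their highest level in further lines. CG44142 had medians of 13.2 to 33.9 CPM in 4 lines and 0.129 in Ithaca, where no kept mated library exceeded 0.710. CG18095 had 6.65 to 27.5 CPM over all kept mated libraries of 4 lines, and its Ithaca median was 0 with a highest library of 0.497. Its exons overlap hll on the opposite strand. CG8317 is Lst, limostatin, a peptide hormone that restrains insulin secretion in the fasting fly. Lst had a median of 1.25 CPM in mated Ithaca females (0.637 to 2.50) against medians of 37.0 to 54.0 elsewhere, with no overlap. CG34172 is COX7AL2, related to a subunit of cytochrome c oxidase, and had 8.95 to 17.8 CPM in mated Ithaca females against 44.8 or more in every other kept mated library. CG12592 was low in Zimbabwe alone (0.480 CPM against medians of 9.14 to 14.5), and CG43680 in Tasmania alone (0.148 against 11.1 to 28.1). CG15534, whose synonym aSMase stands for an acid sphingomyelinase, a lipid-cleaving enzyme, was low in Beijing alone (1.19 CPM against 33.4 to 61.9).

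Reference names and synonyms placed some of the genes in families. The words that defined these families were picked after the synonyms of the 139 genes had been read, so a family's share is no independent evidence about the family. Genes with a serine protease synonym (SP or SPH) were the most numerous. They made up 13 of the 139, and 19.4% of the 67 CG genes with such a synonym and 5 CPM in a line, against 3.39% of all CG genes at that level. Serine proteases cleave proteins in digestion, immunity and reproduction, and the homologues named SPH lack the catalytic residues. Of the 13, CG31681, CG11911, CG8329, CG9676 and CG7829 were low in Beijing alone. CG31681 (SP230) had 0.789 to 5.74 CPM in mated Beijing females and 60.7 to 115 in Ithaca. Its exons overlap CG4271 on the opposite strand. CG11911 (SP103) had 3.98 to 24.6 CPM in Beijing and 182 to 403 in Zimbabwe. CG32523 (SP50) had medians of 0.153 CPM in Beijing and 0.160 in Zimbabwe, against 13.6 in Tasmania. CG11313 (SP11) split the lines into 2 sets, with medians of 239 CPM in Netherlands and 211 in Zimbabwe and 0.654 to 0.798 in the other lines. Yet 1 kept Beijing library reached 20.3 CPM, and virgin Beijing libraries had 16.0, 10.9 and 0.822.

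Of the 5 lipase-like genes (DmelL synonyms, of the class that breaks down dietary fat) at 5 CPM or more, 4 were among the 139, and all 4 were highest in Ithaca. CG6295 was the most counted of the 139 genes and was not silent in any line: its mated medians were 846 CPM in Ithaca, 500 in Zimbabwe, 475 in Netherlands, 137 in Beijing and 52.5 in Tasmania. CG17192 had medians of 346, 150 and 125 CPM in Ithaca, Zimbabwe and Netherlands, and of 5.98 and 1.28 in Tasmania and Beijing. The first 3 lines lay at 26.5 CPM or above and the other lines at 24.9 or below, so the kept mated libraries did not overlap. CG6277 was low in Zimbabwe (4.57 CPM against 154 in Ithaca), with medians of 42.6 in Beijing, 29.5 in Netherlands and 33.4 in Tasmania. CG6296 had a median of 35.6 CPM in Ithaca, and only Beijing (3.54) met the ratio for a low line. Its medians in Netherlands (3.93), Zimbabwe (5.48) and Tasmania (6.996) were also far below that of Ithaca. The remaining gene at this level, CG6283, varied 6.13-fold and missed the ratio.

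Of the 4 lysosomal alpha-mannosidase genes with a CG symbol at that level, 3 were kept. These enzymes trim mannose from glycoproteins in the lysosome. LManIII (CG9463) had mated medians of 106 CPM in Ithaca and 25.9 in Netherlands, against 4.29 in Beijing, 1.79 in Zimbabwe and 1.22 in Tasmania. LManV (CG9466) had 209 and 104 CPM in Ithaca and Netherlands, and 12.6 to 18.3 elsewhere. LManVI (CG9468) had 556 and 573 CPM in those lines and 50.2 to 113 elsewhere. The 3 genes thus shared the order of a higher pair of lines, Ithaca and Netherlands, over the remaining lines. CG5322 varied only 1.77-fold, from 15.8 to 27.9 CPM.

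Of 4 genes named Srg or Nazo, which are linked to STING, a sensor pathway of antiviral defence, 3 were kept. Srg2 (CG42825) had a mated median of 218 CPM in Tasmania (76.5 to 364), 31.5 in Beijing, 26.6 in Ithaca, 1.49 in Netherlands and 0.614 in Zimbabwe. Srg3 (CG33926) was high in Tasmania (142 CPM) and Beijing (136) and lowest in Zimbabwe (9.67). Nazo (CG11671) was highest in Beijing (96.1 CPM) and lowest in Netherlands (6.32). All 3 were higher in Beijing and Tasmania than in Ithaca, Netherlands and Zimbabwe by their medians, by little for Srg2 in Beijing over Ithaca. The remaining gene, CG13641, varied 3.97-fold and missed the ratio. It too was highest in Tasmania (10.5 CPM) and Beijing (5.22). Of 41 ecdysteroid kinase-like genes (Dro synonyms, related to enzymes that inactivate the moulting hormone by phosphorylation), 5 were kept (12.2%). CG6908 had 420 to 952 CPM in mated Ithaca females, and at most 98.6 in every other kept mated library. The others were CG10559 and CG33509, highest in Beijing and Netherlands, and CG13658 and CG31097, both low in Tasmania alone.

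Other kept genes with a known role included Ugt37A2 (CG5724), a UDP-glycosyltransferase of the family that conjugates small molecules, at 149 CPM in Beijing and 4.33 in Tasmania. GILT3 (CG13822), a lysosomal thiol reductase, had 0.788 CPM in Netherlands and 40.2 in Tasmania. BomS4 (CG18107), a Bomanin peptide of the Toll immune response, had 1.35 CPM in Zimbabwe and 19.5 in Ithaca. Its exons overlap another Bomanin gene, BomBc2, on the opposite strand. The gene narya (CG12200), which acts in meiotic crossover formation, had 0.459 CPM in Tasmania and 7.58 in Beijing. Gba1a (CG31148), a glucocerebrosidase, had 7.88 CPM in Zimbabwe and 94.5 in Beijing. All of these are mated medians of the lowest and highest line. CG9360, whose synonym FOHSDR denotes a farnesol dehydrogenase, had 492 to 934 CPM in Ithaca and 15.2 to 30.3 in Netherlands. Among the most counted genes without a named role, CG4716 had 42.0 to 63.6 CPM in Ithaca and 266 or more in every other kept mated library, and CG42807 had a median of 365 CPM in Beijing and 34.4 in Netherlands. The table's CG32368 is a long noncoding RNA in the reference and had 241 CPM in Beijing and 4.14 in Zimbabwe, as is CG32582. In all, 23 of the 139 had a gene name in the reference and 24 had exons overlapping another gene.

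The thresholds cut through a continuous range. Just inside the ratio were CG6296, CG42335 and CG16762, whose lowest median was 0.0994, 0.0983 and 0.0982 of the highest. Just outside were CG1942, CG6106 and CG3088 at 0.101, 0.101 and 0.103. Just inside the minimum were CG42876, CG15399 and CG10764 at 5.04, 5.42 and 5.54 CPM, and just outside were CG13749, CG31664 and CG13313 at 4.89, 4.76 and 4.70 CPM.

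Some of the 139 genes lie side by side in the reference annotation. Counting the next gene or a gene with 1 other between, 24 of them formed 11 groups with 14 pairs. In 11 pairs the genes shared a low line, in 3 pairs they had exactly the same low lines, and in 7 pairs the same line was highest. No share over pairs that are not neighbours was taken, so these counts are a description. The lipases CG17192, CG6295 and CG6296 formed 1 trio and LManIII, LManV and LManVI the other. CG11211 and CG8343 were both low in Beijing alone and highest in Netherlands. CG10154 and CG10725 were both highest in Netherlands, but Ithaca separated them, with a median of 14.7 CPM for CG10725 and 0.215 for CG10154. Neighbours could also run in opposite directions. The adjacent proteases CG11911 and CG11912 were low in Beijing alone and in Ithaca alone: mated Beijing medians were 7.72 and 81.9 CPM, and mated Ithaca medians 330 and 2.65 CPM. The proteases CG18179 and CG8329 were also low in different lines, Tasmania and Beijing.

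**Figure D3:**
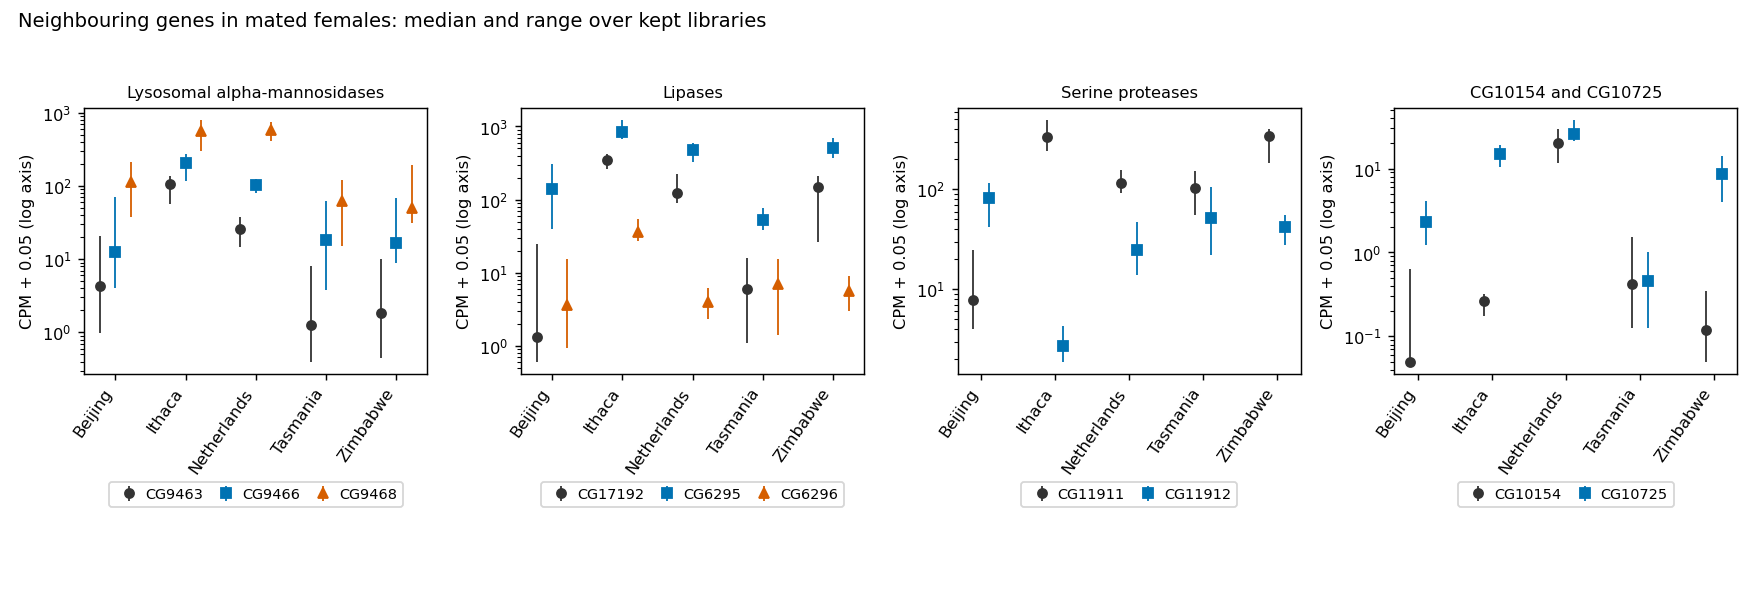
Mated levels of 4 groups of neighbouring genes by female line, as the median (marker) and the range (bar) of CPM over the kept mated libraries (log axis, with 0.05 added). Levels are to be compared between lines within a gene, since counts are not corrected for gene length. The 3 mannosidases are higher in Ithaca and Netherlands, whereas the proteases CG11911 and CG11912 fall in different lines, with Beijing medians of 7.72 and 81.9 CPM.

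Virgin females, whose libraries were not used to choose the genes, gave the test of the line differences. A fit of the 15 virgin libraries with edgeR's quasi-likelihood test, adjusted by Benjamini-Hochberg over 10160 genes, called a difference between lines in 138 of the 139 genes, against 26.4 percent of all genes tested. All 139 passed the filter on low counts. For each gene, the line highest among mated females was then compared with the line lowest among them. The virgin level was higher in the former in 136 genes (97.8%), against 37 percent of all genes compared in the same way. The fitted change was above 0 in all 139, with a median of 3.82 on the log2 scale (0.42 over all genes) and a range of 0.68 to 9.01. In 135 of 139 genes the 3 virgin libraries of the higher line lay above the 3 of the lower line, against 53.1 percent of all genes. Without Tasmania virgin replicate 3, 136 genes differed between lines and 135 were higher in the former line, against 22.7 and 33.2 percent of all genes. Leaving out Beijing virgin replicate 1 as well, these counts were 132 and 133, against 18.1 and 28.4 percent.

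Among the largest changes were CG14499, higher in Beijing than Zimbabwe virgins by 6.83 ± 0.91 (log2, ± SE, n = 3 against 3 libraries, edgeR adjusted p = 6.5e-05), and CG32718, higher in Zimbabwe than Beijing virgins by 8.38 ± 1.00 (adjusted p = 2.3e-05). Srg2 was 6.58 ± 0.69 higher in Tasmania than Zimbabwe (edgeR adjusted p = 7.5e-06), and Lst was 5.57 ± 0.28 higher in Zimbabwe than Ithaca (adjusted p = 1.7e-08). CG6908 was 4.02 ± 0.28 higher in Ithaca than Zimbabwe (edgeR adjusted p = 2.9e-07), and LManIII 5.16 ± 0.65 higher in Ithaca than Tasmania (adjusted p = 4.1e-05). For 10 genes the lower line had at most 3 reads over its virgin libraries, and their fitted changes depend on the small count added in the fit. CG17377 had none of the reads in Tasmania virgins, and with 3 reads over that group taken as the limit it was at least 73.9-fold higher in Beijing virgins.

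The comparison was not passed by 3 genes, CG13905, CG15829 and CG32642, and CG31091 passed it (2.56 ± 0.77, edgeR adjusted p = 0.019) with overlapping libraries. CG13905 is named mat in the reference. Its Beijing virgins had 31.4, 37.3 and 100 CPM and its Tasmania virgins 44.6, 12.2 and 44.5, so the lines overlapped (0.68 ± 0.63, edgeR adjusted p = 0.40). CG15829 is Acbp6, of the acyl-CoA binding family. Zimbabwe virgins had 13.0, 8.39 and 1.39 CPM of Acbp6, whereas the median of mated Zimbabwe females was 1.32, and Beijing virgins had 9.34, 10.1 and 20.3 (edgeR adjusted p = 0.44). CG32642 differed between lines in other pairs: Ithaca virgins had 252, 163 and 291 CPM, and Zimbabwe and Beijing virgins lay between 6.97 and 41.4 (0.75 ± 0.68 for Zimbabwe minus Beijing, edgeR adjusted p = 0.38). The line with the highest median was the same in virgin and mated females for 115 genes and the line with the lowest for 96. Applied to virgin medians, the thresholds kept 135 CG genes, and the 97 shared genes were 69.8% of the mated set and 71.9% of the virgin set.

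**Figure D4:**
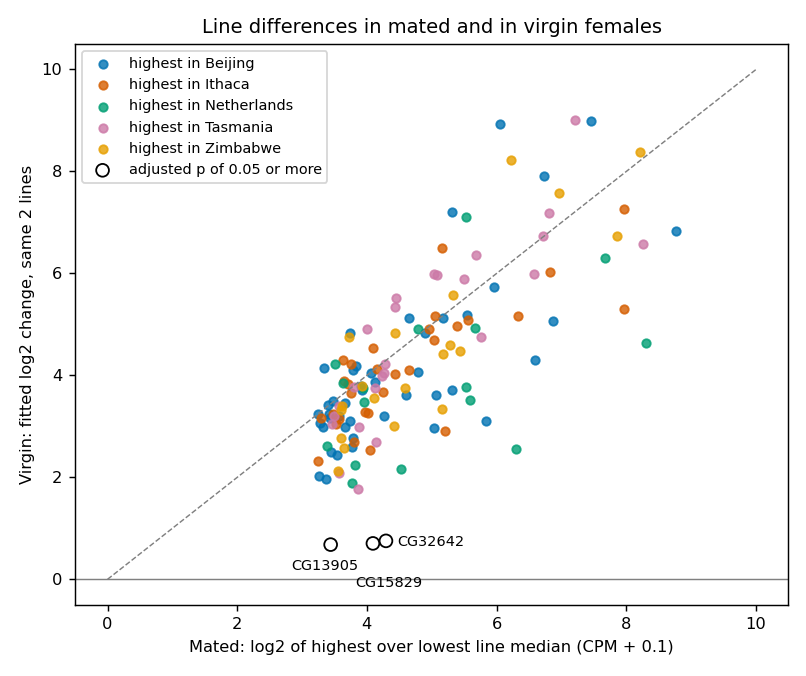
Each point is 1 of the 139 genes: the log2 ratio of the highest to the lowest mated line median (0.1 CPM added to both) against the fitted log2 change between the same lines in virgins, coloured by the highest line. The dashed line marks equal values. All points lie above 0 on the virgin axis, and the 3 circled genes, CG13905, CG15829 and CG32642, did not pass the test.

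Mating changed 20 of these genes by its mean effect. Over the 80 kept libraries, the mean over lines of mated minus virgin was higher in 12 genes (8.63%, against 5.82 percent of the 10570 genes tested) and lower in 8 (5.76%, against 1.9 percent), by edgeR's test with Benjamini-Hochberg adjustment over all genes. The mated libraries in this comparison also chose the genes, so the shares are given as a description. The median change was 0.04 on the log2 scale, against 0.00 over all genes. These counts moved with single virgin libraries. The 12 became 7 without Beijing replicate 2 (4.5 percent of all genes). They became 6 without Ithaca replicate 1, Netherlands replicate 2 or Zimbabwe replicate 1 (4.68, 4.76 and 5.05 percent of all genes). The 8 became 5 without Beijing replicate 1 or 3, Netherlands replicate 1 or Zimbabwe replicate 2 (1.46, 1.33, 1.85 and 1.36 percent of all genes). Without Tasmania virgin replicate 3 the counts were 10 and 6, against 5.11 and 1.52 percent of all genes. CG9463, CG9466, CG4830, CG32984, CG4250 and CG8147 were not called in that fit. Of the 20 genes, CG14191, CG43349 and CG6908 were called under all 25 alternative fits, 6 were lost under 1 alternative and 11 under 2 or more (CG8147, CG9463, CG9466, CG33346, CG32984, CG2065, CG4830, CG6435, CG4250, CG3397 and CG32751).

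CG14191 rose most. Virgins had 0.247, 0.0663 and 0.374 CPM in Netherlands and mated Netherlands females 0.696 to 8.98 (median 3.51), with no overlap. Over the lines its change was 1.66 ± 0.31 (log2, ± SE, edgeR adjusted p = 7.38e-05), and it was above 0 in all 5. The ecdysteroid kinase-like gene CG6908 rose by 0.50 ± 0.11 (edgeR adjusted p = 0.000864), from 368, 373 and 584 CPM in virgin to a median of 639 in mated Ithaca females. The mannosidases LManIII, LManV and LManVI rose by 0.94 ± 0.30, 0.77 ± 0.25 and 0.90 ± 0.21 (edgeR adjusted p = 0.0387, 0.0449 and 0.0017). The calls of LManIII and LManV were lost under 15 and 14 of the 25 alternatives, no filter on low counts among them, and that of LManVI under 1. The fitted change of LManVI was above 0 in all 5 lines, and those of LManIII and LManV in 4, the Beijing changes being -0.20 and -0.19. The other risers were CG4830 (1.00), CG32751 (0.96), CG31810 (0.78), CG33109 (0.49), CG2065 (0.42), CG32984 (0.41) and CG6435 (0.34 on the log2 scale), whose exons overlap CG8910 on the opposite strand.

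CG43349 fell by 0.69 ± 0.13 on the log2 scale (edgeR adjusted p = 7.38e-05). Ithaca virgins had 36.3, 28.0 and 37.4 CPM and mated Ithaca females a median of 15.5, while Beijing virgins had 68.1, 45.6 and 72.2 against a median of 65.7, a fitted change of 0.05. CG8147 is phu, with the synonym Alp3, an alkaline phosphatase. It fell by 0.75 ± 0.25 on the log2 scale (edgeR adjusted p = 0.0485), but the call was lost under 19 of the 25 alternatives, over which the change ran from -1.08 to -0.43. Zimbabwe virgins had 27.5, 36.9 and 34.4 CPM of phu, all above the mated range of 3.29 to 22. The others that fell were CG13947 (-0.71), CG9568 (-0.69), CG3397 (-0.67), CG4716 (-0.42), CG33346 (-0.39) and CG4250 (-0.38). Of the 8, 4 had a fitted change below 0 in all 5 lines, and the other 4 had a fitted change above 0 in Beijing.

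**Figure D5:**
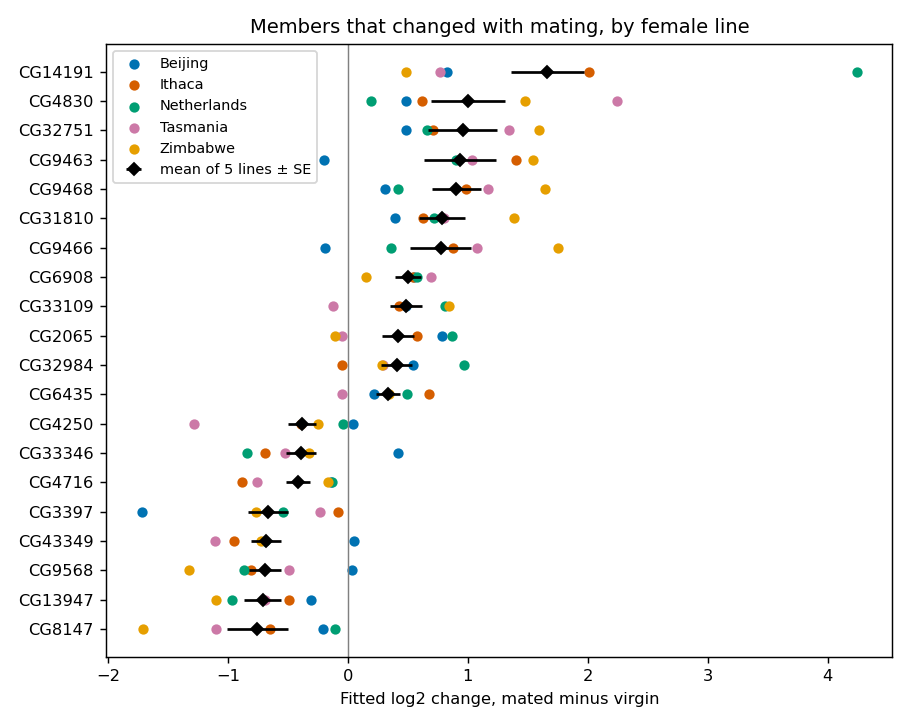
Fitted log2 change from virgin to mated females of the 20 genes called, as the mean of 5 lines with its SE (black diamonds) and for each female line (coloured points). CG14191 lies at 4.24 in Netherlands and CG8147 at -1.71 in Zimbabwe. Beijing points lie above 0 for 4 of the 8 genes with a negative mean.

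The response to mating differed between lines in 3 genes, CG11313, CG32718 and CG7966 (edgeR, 0.114 percent of all genes tested), and each call rested on Tasmania virgin replicate 3. The genes were chosen for large differences between mated line medians, which enter this comparison, so the share over all genes is no yardstick for the 139. In all 3, Tasmania was the line that fell: by 4.63 ± 0.62, 4.05 ± 0.44 and 1.5 ± 0.19 on the log2 scale. CG11313 had 4.01, 0.457 and 46.9 CPM in the Tasmania virgins and at most 2.00 in kept mated Tasmania females. CG7966 had 9.04, 8.68 and 39.3 CPM in those virgins, and 3.72 to 10.9 in mated females. The third virgin library was the high one for each, as for CG32718 above, and in it the Zimbabwe genes stood 15.2% of the way to their Zimbabwe level. Without it, edgeR called 0 of the 139 genes, and 27 had an unadjusted p under 0.05 (3.22% of all genes). Without Tasmania virgin replicate 2 instead, 5 were called (0.141 percent of all genes). Within Tasmania, 13 of the 139 genes were lower after mating (0.851 percent of all genes, a share not set against the 139, since mated Tasmania medians were among the values that chose them), and in 11 of them that library was the highest of the 3 virgins. Without it edgeR called 0 of the 139 genes lower in Tasmania (11 at an unadjusted p under 0.05, and 3.70% of all genes), and the changes of CG11313, CG32718 and CG7966 became -1.66 ± 0.90, -1.45 ± 0.64 and -0.39 ± 0.20. In single other lines, CG14191 was higher after mating in Netherlands (0.0946 percent of all genes) and CG9568 lower in Zimbabwe (0.0568 percent).

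The line of the male was not among the differences that chose the genes. In the 65 kept mated libraries, edgeR called 0 of the 139 genes for male line, against 0.0094 percent of 10639 genes. At an unadjusted p under 0.05 there were 12 (8.63%, against 6.89% of all genes), and DESeq2 also called 0. For an effect of male line that differed between female lines, tested over 15 estimable terms, edgeR called 0 of the 139 genes and 0 percent of all genes, and 13 (9.35%, against 2.92%) had an unadjusted p under 0.05. DESeq2 called 3. With the 9 libraries put back, edgeR called 13 of the 139 genes (185 genes in all) for the interaction and 1 (552 in all) for male line.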

How the data were processed

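The authors deposited unnormalized read counts, 1 whole number per gene and library. Per the labels' protocols, the kit was TruSeq RNA v2, which does not mark strand, with single-end sequencing of 100 bases. The submitters' processing notes name HTSeq, TopHat2, Trimmomatic, FastQC and the build dm3. Versions, annotation and counting options are not given in the sources used here. The table holds 89 of 90 labelled samples, and Ithaca x Zimbabwe replicate 2 was not analysed here. Another 8 rows have a number as their symbol; they were left out and held at most 0.263% of a library's counts.

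CPM are counts divided by the column total. The 139 genes, the 9 libraries left out, the lists and the tests were chosen with earlier results of these data known. Genes were named by fixed rules: highest level, sets of low lines, calls, nearness to a threshold and neighbours; examples beyond these, and the family words, were chosen after values were seen. Tests used R 4.3.3 and edgeR 4.0.16 (filterByExpr, TMM, robust quasi-likelihood fits, one mean per group), with Benjamini-Hochberg adjustment over all genes tested and a threshold of 0.05. The fits held 15 virgin libraries, 80 kept libraries in 10 groups, and 65 kept mated libraries (female plus male line). Scripts were tested on simulated counts. Alternatives were DESeq2 1.42.0, its size factors in edgeR, no filter, a replicate block, all libraries and leaving out replicates. A reference annotation of another build (BDGP6) gave names, neighbours and exon overlaps for all 139 genes and no coordinates. Replicates of a group differed beyond counting error in all 88 pairs (chi-square per gene of at least 12.2). Near-identical gene copies were not checked here, so reads shared with paralogs in the lipase, mannosidase and protease families are a limit on their counts.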

Additional observations from a re-analysis of the deposited data

Results flagged for a closer look

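The response to mating differed between female lines in CG11313 (adjusted p = 0.00234 by edgeR's test of line by mating), CG32718 (adjusted p = 4.35e-06) and CG7966 (adjusted p = 1.99e-05). In each the fall was in Tasmania, and the third virgin library of Tasmania was above the other virgin libraries of that line. None of the 3 was called without it.

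Among the 9 mated libraries left out, 6 held more low genes above every kept mated library of the same female line than any kept library of that line held above its fellows. Of the 53 genes low in Ithaca, 22 lay above the kept range in Ithaca x Ithaca replicate 3, 18 in Ithaca x Netherlands replicate 1, 26 in Ithaca x Zimbabwe replicate 1 and 28 in Ithaca x Zimbabwe replicate 3, against at most 11 in a kept Ithaca library. Of the 48 genes low in Netherlands, 35 lay above it in Netherlands x Beijing replicate 2 and 23 in Netherlands x Ithaca replicate 2, against at most 12 in a kept library. The kept libraries, unlike those left out, entered the medians by which the genes were called low. No share of all genes above the kept range was taken, so these counts are a description. Testis markers summed to 345, 19.0, 1513, 8.37, 1535 and 3.86 CPM in these 6 libraries in the same order, and their part in the counts was not tested. Beijing x Tasmania replicate 1 was kept, although 23 of 53 low genes lay above the other kept Beijing libraries. Without it the thresholds again kept 139 genes, 136 of them shared.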

How the results depend on the processing

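Of 149 alternative counts, 128 lay within 1.5 times the value given above. The counts among virgins, near 139 throughout, all lay within this limit. Most of the counts beyond it were those for mating and for line by mating. Between 128 and 138 of the 139 genes were called for line among virgins under every alternative run. The share of all genes ran from 8.52 percent (without replicate 3) to 40.9 percent (without Netherlands virgin replicate 1). Without a replicate number or a virgin library, the genes higher after mating numbered 5 to 16 and those lower 3 to 9. The shares of all genes were 2.81 to 7.3 percent and 0.947 to 1.85 percent. Of the 139, those whose response differed between lines numbered 0 to 5 (0 to 0.188 percent of all genes). Those called for female by male line numbered 0 to 1 (0 to 0.00928 percent of all genes). With all 89 libraries, 4 genes were lower after mating (1.68 percent of all genes). With all 74 mated libraries, 1 gene was called for male line and 13 for female by male line (4.59 and 1.54 percent of all genes). On the kept mated libraries, DESeq2 called 3 for female by male line (0.291 percent of all genes). Without Tasmania virgin replicate 3 and Beijing virgin replicate 1, 0 responses differed between lines. The cause of these shifts was not tested beyond the libraries named. Single-gene changes of sign were CG33346 after mating with all libraries (0.035 on the log2 scale), and, among virgins, CG15829 (-0.25 to 1.53 over the fits that left libraries out) and CG13905 (-0.044 to 1.22), neither of them called. CG32368 lost its call without replicate 1.

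Replicate numbers showed no pairing among virgin libraries. Over 30 same-number pairs the correlation of deviations ran from -0.534 to 0.578, and 3 of 15 libraries correlated best with their own number. Mated libraries were not compared in this way. A replicate block gave 136 genes for line among virgins and 135 for the higher against the lower line (22.1 and 32.8 percent of all genes). It gave 12 higher and 9 lower after mating (6.36 and 2.58 percent of all genes). For line by mating it gave 3 (0.114 percent of all genes), and for both male line tests 0.

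Other ways of choosing the genes kept 131 to 148, of which 124 to 136 were shared, except that virgin medians shared 97. Counts near 0 in a low line bound the precision of its level. Among virgins, p-values measure the spread between pools of females from separate bottles. In the mating fit the kept mated libraries of a line were pooled over male lines. The spread there also holds differences between crosses. Leaving out Beijing x Tasmania replicate 1 changed none of the counts for mating and male line.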
